A study of Mus musculus with 13 samples.

Results

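The genes described here are 10 markers of lipid-associated macrophages, the macrophages that gather in fatty liver: Trem2, Gpnmb, Cd9, Cd63, Fabp5, Cd68, Itgax, Lgals3, Ms4a7 and Clec7a. They were chosen by name, matched by symbol to the Ensembl identifiers of a liver count table with 53465 genes, and all 10 were among the 13545 genes with enough counts to be tested. The table comes from livers of male BALB/c mice, an inbred laboratory strain, with 1 library of polyadenylated RNA per mouse. There were 6 WT mice and 7 Nod2-/- mice, which lack the pattern recognition receptor Nod2 in the whole body. Both genotypes had received the carcinogen DMBA on the skin as newborn pups and were kept on a high fat diet until 30 weeks of age, the value of the sample labels, and the labels give cancer as the disease state for both. No untreated mice or mice on normal chow are in the table, so that every value below is from liver after carcinogen and high fat diet. WT and Nod2-/- mice were bred separately rather than as littermates, so genotype and breeding line cannot be told apart. Nod2 itself had 0 to 4 counts in WT mice and 1 to 6 counts in Nod2-/- mice, too few to check the genotype labels.

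Liver macrophages are of several kinds. Kupffer cells are the long-lived resident population in the sinusoids, and monocytes from blood replace or join them when the liver is injured. In steatosis, part of the recruited cells take up lipid, settle around fat-laden hepatocytes and bile ducts, and switch on a shared set of genes for lipid sensing, lysosomal digestion and fatty acid handling. Trem2 is the surface receptor after which much of this programme is named. It binds lipids and lipoproteins and signals through the adaptor Tyrobp (DAP12) and the kinase Syk. The other members do different jobs and are not equally specific. Clec7a (Dectin-1, a receptor for beta-glucans), Itgax (the integrin CD11c), Ms4a7 (a membrane protein of macrophages), Cd68 (a lysosomal membrane glycoprotein) and Gpnmb (a glycoprotein of lysosomes and the cell surface) are made mainly by macrophages and their relatives, and are grouped here with Trem2 as macrophage-restricted members. Cd9 and Cd63 (tetraspanins of the plasma membrane and of late endosomes and exosomes), Fabp5 (an intracellular fatty acid binding protein) and Lgals3 (galectin-3, a beta-galactoside binding lectin) are also made by many epithelial and tumor cells, and are grouped as broadly expressed members.

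The sequence just before the transcription start, from RefSeq on GRCm38.p6, is shown for 3 macrophage-restricted members: Trem2, because it names the programme, Cd68, because its window holds the most motif matches of all members, and Gpnmb, because its difference between genotypes ran opposite to that of the other members. Each runs 250 bases, 5′ to 3′ on the strand of the gene, at chr17:48346151-48346400 (plus strand) for Trem2, chr11:69666171-69666420 (minus strand) for Cd68 and chr6:49036268-49036517 (plus strand) for Gpnmb. Capitals mark the letters of 2 motifs, searched on both strands: GAGGAA, the core bound by the macrophage factor PU.1, and TGANTCA, the site of AP-1.
Trem2: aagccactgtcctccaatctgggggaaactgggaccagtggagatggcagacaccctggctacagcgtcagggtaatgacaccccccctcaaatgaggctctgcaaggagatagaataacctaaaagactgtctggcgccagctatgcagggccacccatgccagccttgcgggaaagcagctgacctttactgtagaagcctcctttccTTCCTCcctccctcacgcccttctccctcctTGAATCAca
Cd68: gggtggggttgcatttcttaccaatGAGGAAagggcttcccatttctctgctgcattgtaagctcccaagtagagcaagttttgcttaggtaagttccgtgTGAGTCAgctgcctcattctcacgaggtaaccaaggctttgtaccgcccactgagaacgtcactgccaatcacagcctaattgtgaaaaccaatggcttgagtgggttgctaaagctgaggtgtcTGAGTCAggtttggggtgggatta
Gpnmb: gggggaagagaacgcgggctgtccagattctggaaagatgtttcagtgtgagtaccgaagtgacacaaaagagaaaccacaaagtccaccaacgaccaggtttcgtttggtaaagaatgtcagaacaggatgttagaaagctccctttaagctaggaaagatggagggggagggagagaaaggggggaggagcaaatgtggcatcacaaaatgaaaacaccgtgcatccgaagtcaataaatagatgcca
Trem2 held TTCCTC, the PU.1 core on the opposite strand, with its first base 40 bases before the start, and TGAATCA 9 bases before it. Cd68 held GAGGAA 225 bases before its start and TGAGTCA at 149 and 24 bases before it. The Gpnmb window held neither set of letters. GAGGAA was present in 23.3% and TGANTCA in 6.75% of all 32851 mouse promoter windows of this length. The E-box CACGTG (6.02% of all windows) and the M-box TCATGTG (3.25%), which the lysosomal factors TFEB and MITF bind, were in none of the 11 windows found for 9 of the members. These matches describe the letters in the windows and show no binding. Among the other members, the Clec7a windows and the Cd63 window held GAGGAA, and the Itgax window and 1 of 2 Ms4a7 windows held TGANTCA.

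Positions are on GRCm38, from GENCODE release 21. Of the macrophage-restricted members, the plus strand carries Trem2 (ENSMUSG00000023992.14) at chr17:48346401-48354147, Itgax (ENSMUSG00000030789.9) at chr7:128129547-128150657 and Gpnmb (ENSMUSG00000029816.10) at chr6:49036546-49070929, and the minus strand Clec7a (ENSMUSG00000079293.11) at chr6:129461591-129472779, Ms4a7 (ENSMUSG00000024672.11) at chr19:11321039-11336146 and Cd68 (ENSMUSG00000018774.13) at chr11:69664213-69666153. Of the broadly expressed members, the plus strand carries Cd63 (ENSMUSG00000025351.14) at chr10:128900989-128912822, Fabp5 (ENSMUSG00000027533.10) at chr3:10012548-10016607 and Lgals3 (ENSMUSG00000050335.17) at chr14:47367751-47386160, and the minus strand Cd9 (ENSMUSG00000030342.8) at chr6:125460266-125494791. Gpnmb, Cd9 and Clec7a share chromosome 6.

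Each WT library held between 14886273 and 20579984 counts, and each Nod2-/- library between 13824780 and 19391431. The 12 hepatocyte genes summed to 84264 CPM (counts scaled to a common library size) or more in every library, and the 15 pan-macrophage genes were counted in every mouse. Several libraries stood apart and touch the results below. WT replicate 3 had the highest summed level of 16 liver tumor and progenitor genes among WT mice, 782 CPM against a WT median of 132. Nod2-/- replicate 7 had 1082 CPM of neutrophil genes against a Nod2-/- median of 31.6. Lung epithelium genes, leaving out Cyp2f2 and Hopx because they were abundant in every liver, reached 207 CPM in WT replicate 4 (WT median 39.7, Nod2-/- median 8.45).

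The question asked of the 10 genes was whether the macrophage programme of fatty liver differed between Nod2-/- and WT mice. The macrophage-restricted members did not differ detectably between genotypes, and the broadly expressed Cd9, Cd63, Fabp5 and Lgals3 had higher values in Nod2-/- mice, without passing the genome-wide threshold. Whether these 2 sets of members differ from each other in their response was not tested. With edgeR (quasi-likelihood test, Benjamini-Hochberg correction across the 13545 genes), 0 of the 10 members were past a 5% false discovery rate (FDR) in either direction, where 1.16% of all genes tested were (0.65% higher and 0.509% lower in Nod2-/-). At an unadjusted p under 0.05, 4 of the 10 were higher in Nod2-/- mice and 0 lower, against 12.9% and 10.2% of all genes tested. The 4 were Cd9, Cd63, Fabp5 and Lgals3. The study's own tables of changed genes hold Cd63 and Fabp5. All 10 members were read from the same mice as those tables, so none of them is independent evidence of a direction. The fitted log2 fold change was above 0 for 9 of 10 members, with a median of 0.36, and for 52.3% of all genes tested, with a median of 0.02. The groups overlapped for all 10 members, while they did not overlap for 1.44% of all genes tested (0.753% higher and 0.687% lower in Nod2-/-). Unless another unit is named, values below are normalized counts, that is, counts divided by TMM-adjusted library sizes and brought to the mean library.

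**Figure D1:**
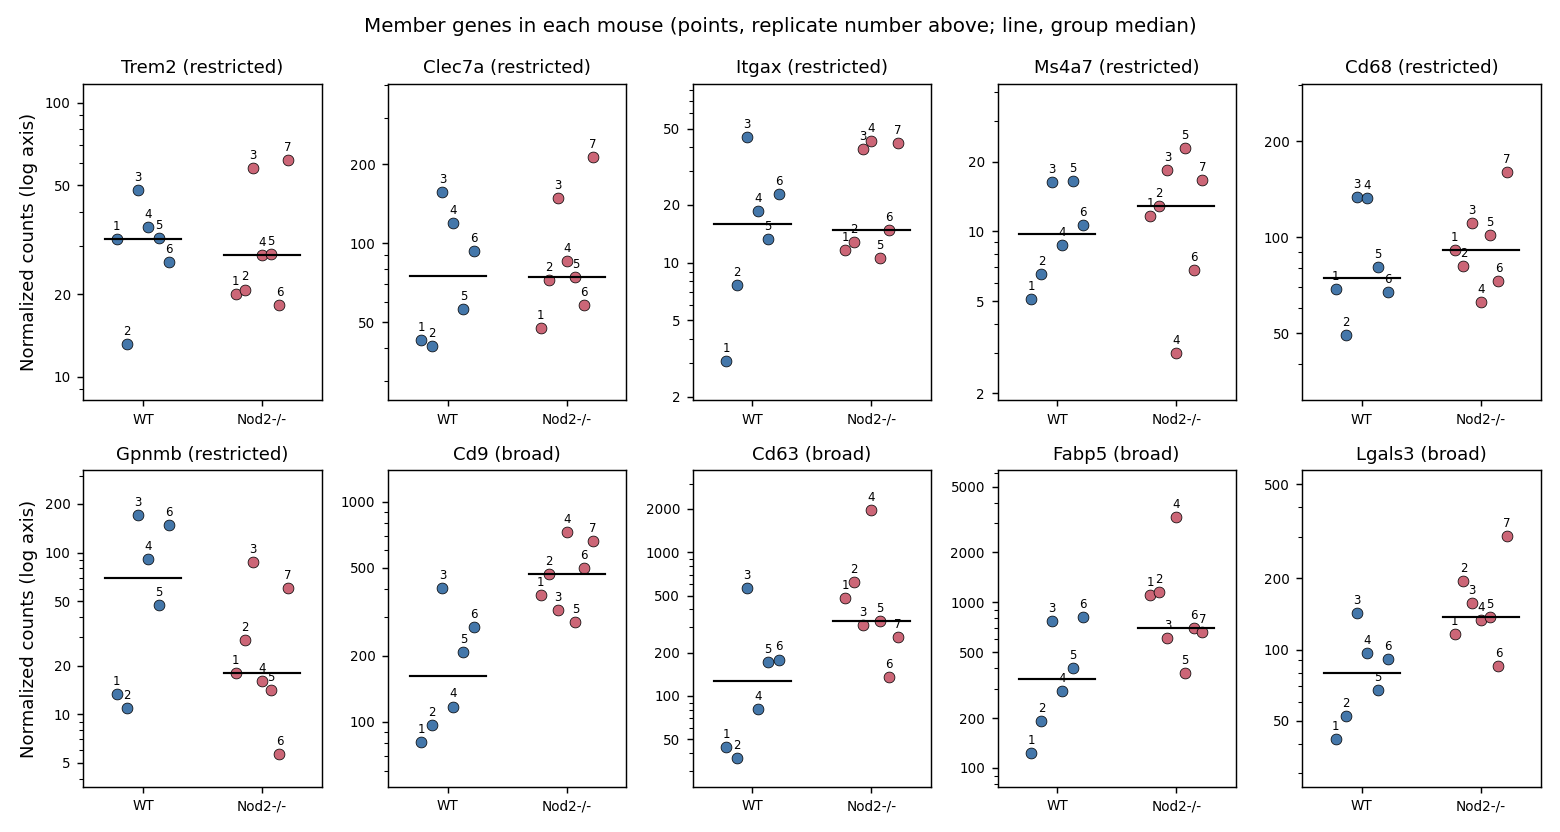
Normalized counts of the 10 members (log axes) in 6 WT and 7 Nod2-/- mice, 1 point per mouse with its replicate number and a line at the group median. For Cd9, Cd63, Fabp5 and Lgals3 all 7 Nod2-/- mice lay above the WT median, and in every panel the groups overlap.

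Cd9 showed the clearest separation. It had a lowest, median and highest normalized count of 81.0, 162 and 404 in WT mice and of 283, 471 and 730 in Nod2-/- mice. All 7 Nod2-/- mice were above the WT median, and 4 of them were above every WT mouse; WT replicate 3 was the only WT mouse within the Nod2-/- range. The mean was 196 ± 125 (SD, n = 6) in WT and 477 ± 169 (SD, n = 7) in Nod2-/- mice (log2 fold change 1.28, standard error 0.36, edgeR adjusted p = 0.0723). A two-sided exact permutation test over all 1716 splits of the mice, in which no p below 0.000583 can occur, gave p = 0.00816, or 0.131 after Benjamini-Hochberg adjustment over all genes tested. Of the 13545 genes tested, 10.5% were higher in Nod2-/- mice at an exact permutation p under 0.05. DESeq2, the program the study used, placed Cd9 past 5% FDR (log2 fold change 1.27, adjusted p = 0.00989), and so did edgeR without WT replicate 3 (1.61, adjusted p = 0.0179). WT replicate 3 was the highest WT mouse, and leaving out any other single mouse did not place Cd9 past 5% FDR. Without WT replicate 2 the edgeR log2 fold change was 1.14 (adjusted p = 0.166). Part of the Cd9 exons (218 bases) overlaps Gm26728 on the opposite strand, and whether the counting used strand is not given in the sources used here.

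Lgals3 followed with a smaller difference. Its lowest, median and highest values were 42.03, 79.6 and 143 in WT mice and 85.3, 137 and 302 in Nod2-/- mice. WT replicates 1, 2 and 5 were below every Nod2-/- mouse, and Nod2-/- replicates 2, 3 and 7 above every WT mouse. The mean was 82.2 ± 36.5 (SD, n = 6) in WT and 161 ± 70.7 (SD, n = 7) in Nod2-/- mice (log2 fold change 0.96, standard error 0.31, edgeR adjusted p = 0.0978). The two-sided exact permutation test gave p = 0.0192, or 0.164 adjusted over all genes tested. Lgals3 was past 5% FDR by DESeq2 (adjusted p = 0.0334) and by edgeR without WT replicate 3 (log2 fold change 1.18, adjusted p = 0.0341). WT replicate 3 was the highest WT mouse here as well, and leaving out any other single mouse gave no call. The edgeR log2 fold change was 0.74 without Nod2-/- replicate 7 (adjusted p = 0.189) and 0.86 without WT replicate 2 (adjusted p = 0.214).

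Cd63 and Fabp5 had the largest log2 fold changes of the members and a wide spread between mice. Cd63 ranged from 37.3 to 564 in WT mice (median 127) and from 135 to 1954 in Nod2-/- mice (median 331), so that the highest mouse had 52.4 times the normalized count of the lowest. Nod2-/- replicate 4 alone held 47.7% of the group's normalized Cd63 counts, and WT replicate 3 held 52.3% of those of the WT group. The log2 fold change was 1.69 (standard error 0.68, edgeR adjusted p = 0.162). The two-sided exact permutation test gave p = 0.0938 on normalized counts and p = 0.0344 on log2(CPM + 1). Without WT replicate 3 the log2 fold change was 2.49 (adjusted p = 0.0373), and without Nod2-/- replicate 4 it was 0.98 (adjusted p = 0.376).

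Fabp5 had values of 123 to 814 in WT mice (median 346) and of 376 to 3297 in Nod2-/- mice (median 695). Nod2-/- replicates 1, 2 and 4 were above every WT mouse, and WT replicates 3 and 6 were each above 4 of the Nod2-/- mice. The log2 fold change was 1.38 (standard error 0.53, edgeR adjusted p = 0.144), with an exact permutation p of 0.0647 on normalized counts and of 0.0385 on log2(CPM + 1), both two-sided. Without Nod2-/- replicate 4, which held 41.8% of the group's normalized Fabp5 counts, the log2 fold change was 0.82 (adjusted p = 0.315). A processed pseudogene named for Fabp5, Fabp5l2, lies on chromosome 18, and how reads shared with such a copy were counted is not given in the sources used here.

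Over the alternatives, limma's voomWithQualityWeights, which gives libraries that stand apart less weight, placed Cd9, Lgals3 and Cd63 past 5% FDR (adjusted p = 0.0187, 0.0387 and 0.0463), where 3.83% of all genes tested were higher and past it. DESeq2 placed 2 of the 10 members past it, Cd9 and Lgals3, where 3.81% of its genes were higher and past it. Cd63 and Fabp5, which the study's own tables hold, had DESeq2 adjusted p-values of 0.122 and 0.109 here. edgeR without WT replicate 3 placed 3 members past it, where the share of all genes was 5.12%. Leaving out WT replicate 3 and Nod2-/- replicate 7 together also gave 3 members, the share of all genes being 3.04%.

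Trem2 did not differ detectably. Its lowest, median and highest values were 13.2, 31.9 and 47.9 in WT mice and 18.2, 27.9 and 61.7 in Nod2-/- mice. Nod2-/- replicates 3 and 7 had the highest values of all mice and 5 of the 7 Nod2-/- mice were below the WT median. The log2 fold change was 0.11 (standard error 0.34, edgeR adjusted p = 0.874; two-sided exact permutation p = 0.786). It was below 0 when WT replicate 2, Nod2-/- replicate 3 or Nod2-/- replicate 7 was left out, with the lowest value at -0.11. In bulk liver, fewer cells of a type and less RNA per cell cannot be told apart, here and for every member.

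Cd68 and Clec7a had a similar pattern across mice. Cd68 had lowest, median and highest values of 49.3, 74.7 and 134 in WT mice and of 62.8, 91.0 and 160 in Nod2-/- mice (log2 fold change 0.13, standard error 0.26, edgeR adjusted p = 0.792). Clec7a had 40.6, 74.8 and 156 in WT mice and 47.6, 74.7 and 213 in Nod2-/- mice (log2 fold change 0.23, standard error 0.39, edgeR adjusted p = 0.751). In both genes Nod2-/- replicate 7 was highest and WT replicate 2 lowest, and without Nod2-/- replicate 7 the log2 fold changes were -0.030 and -0.066. The annotation lists Clec7a as a polymorphic pseudogene, a gene that is intact in some mouse strains and not in others.

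Itgax and Ms4a7 were the least counted members, with at most 50 and 26 raw counts in any mouse. Itgax ranged from 3.08 to 45.2 in WT mice (median 15.95) and from 10.6 to 42.9 in Nod2-/- mice (median 14.8). Its high values fell in WT replicate 3 and Nod2-/- replicates 3, 4 and 7, each above 39, and the remaining 9 mice were at 22.9 or lower (log2 fold change 0.41, standard error 0.52, edgeR adjusted p = 0.663). Ms4a7 ranged from 5.12 to 16.6 in WT mice (median 9.71) and from 2.99 to 22.9 in Nod2-/- mice (median 12.9). Nod2-/- replicate 4, the highest mouse for 3 of the broadly expressed members, was the lowest of all 13 for Ms4a7 (log2 fold change 0.31, standard error 0.40, edgeR adjusted p = 0.667).

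Gpnmb was the 1 member with a lower mean in Nod2-/- mice. Its values in WT replicates 1 to 6 were 13.3, 10.96, 169.9, 91.0, 47.5 and 148.2, and in Nod2-/- replicates 1 to 7 they were 18.0, 28.8, 87.3, 15.96, 14.1, 5.69 and 60.8. Values of WT mice were thus widely spread, with the lowest in replicates 1 and 2, and 6 of the 7 Nod2-/- mice were below the WT median of 69.3. The mean was 80.2 ± 68.0 (SD, n = 6) in WT and 32.9 ± 29.9 (SD, n = 7) in Nod2-/- mice (log2 fold change -1.29, standard error 0.66, edgeR adjusted p = 0.259; two-sided exact permutation p = 0.135). The log2 fold change stayed between -1.75 and -0.94 when each mouse was left out in turn. Of 14 lung epithelium genes 8 were tested, of which 6 had a log2 fold change below 0 (median -1.93) and 0 were past 5% FDR, with 5 lower at an unadjusted p under 0.05 (10.2% of all genes tested). Their surfactant gene Sftpc, chosen after its values were seen, ran from 106 to 1786 in WT and from 7.84 to 251 in Nod2-/- mice, whereas Napsa and Hopx had log2 fold changes of 0.54 and 0.42. The sum of the whole list, of which Cyp2f2 and Hopx make up most, was 785 to 1404 CPM in WT mice and 350 to 1216 CPM in Nod2-/- mice. Without those 2 genes it was 14.96 to 207 CPM in WT and 3.76 to 34.6 CPM in Nod2-/- mice. Among WT mice the highest of these sums fell in replicate 4, with 91.0 normalized counts of Gpnmb, and the next in replicate 2 (116 CPM), with 10.96. Of 13 genes of lung macrophages 8 were tested, 5 had a log2 fold change above 0 (median 0.12) and 0 were past 5% FDR, with summed levels, mostly from Slc7a2, of 474 to 628 CPM in WT and 382 to 645 CPM in Nod2-/- mice. Of this list Ear1 and Krt79 had at most 3 counts in any mouse and Car4 and Siglecf at most 6.86 normalized counts, while others were well counted, among them Ear2 (18.5 ± 9.92 in WT, 29.6 ± 16.2 in Nod2-/- mice), Plet1 (33.6 ± 13.5 and 56.3 ± 30.8) and Marco (26.9 ± 12.6 and 14.98 ± 10.3, highest in WT replicate 4), all SD with n = 6 and n = 7 and chosen after their values were seen. The part of lung tissue in the Gpnmb values was not tested.

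**Figure D2:**
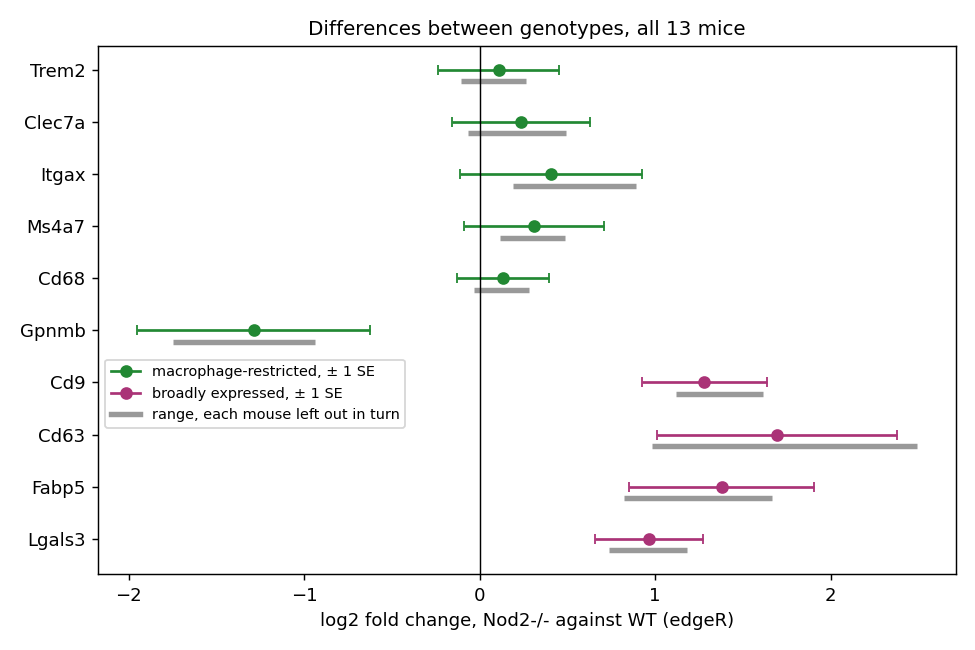
Log2 fold change of each member, Nod2-/- against WT, from edgeR on all 13 mice (points, with bars of 1 standard error), and the range when each mouse is left out in turn (grey). The 4 broadly expressed members lie between 0.96 and 1.69, 5 macrophage-restricted members between 0.11 and 0.41, and Gpnmb at -1.29.

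Levels were compared between genes as CPM per kilobase of exon. In Nod2-/- mice the broadly expressed members led, with mean levels per kilobase of 19.1 ± 16.8 for Fabp5, 14.1 ± 4.97 for Cd9, 9.58 ± 10.2 for Cd63 and 5.22 ± 2.29 for Lgals3 (SD, n = 7). Cd68 (4.67 ± 1.54) and Clec7a (2.29 ± 1.36) were the only macrophage-restricted members above 1 CPM per kilobase. Trem2 (0.41 ± 0.22), Itgax (0.31 ± 0.20), Gpnmb (0.30 ± 0.28) and Ms4a7 (0.18 ± 0.09) followed. Neighbours in this order differed by less than the larger of their SDs, except Cd68 and Clec7a, and Clec7a and Trem2. Per kilobase of the longest transcript, Cd9 (23.4 ± 8.28) came before Fabp5, and Gpnmb (0.54 ± 0.49) before Trem2 (0.42 ± 0.23) and Itgax (0.37 ± 0.23). In WT mice Gpnmb reached 0.74 ± 0.63 CPM per kilobase (SD, n = 6), above Trem2 at 0.38 ± 0.14, with the spread of Gpnmb covering the gap, and per kilobase of the longest transcript it reached 1.31 ± 1.11.

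The members did not share 1 ranking of the 13 mice. Pairs with a broadly expressed member ran together more among WT mice, while macrophage-restricted pairs were nearly alike in both genotypes. Spearman's rho, a correlation of ranks, was compared for pairs of members within each genotype. Among the 6 WT mice its median was 0.857 for broadly expressed pairs, 0.657 for macrophage-restricted pairs and 0.771 for mixed pairs. Among the 7 Nod2-/- mice the medians were 0.071, 0.571 and -0.071. With 6 and 7 mice such values are imprecise, and the difference between genotypes was not tested. WT replicate 2 was among the 3 lowest mice for all 10 members and WT replicate 1 for 8. Nod2-/- replicate 7 was highest for Trem2, Cd68, Clec7a and Lgals3, Nod2-/- replicate 4 for Cd9, Cd63 and Fabp5, WT replicate 3 for Gpnmb and Itgax, and Nod2-/- replicate 5 for Ms4a7. The summed level of the 6 macrophage-restricted members was 7.74 to 34.3 CPM in WT mice (median 18.5) and 10.6 to 33.4 CPM in Nod2-/- mice (median 14.4). That of the 4 broadly expressed members was 17.5 to 113 CPM in WT mice (median 43.2) and 68.0 to 369 CPM in Nod2-/- mice (median 113). The first sum thus covered nearly the same range in both genotypes, whereas the second was below the lowest Nod2-/- mouse in 4 of 6 WT mice. Within Nod2-/- mice Lgals3 did not follow the other broadly expressed members. Its rho there was 0.000 with Cd9, 0.036 with Cd63 and -0.214 with Fabp5. With the macrophage-restricted members it ran from 0.214 (Itgax) to 0.786 (Trem2).

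The mice at both ends of the broadly expressed members were also at the ends of the liver tumor and progenitor list. That list holds Spp1, which also belongs to the wider lipid-associated programme. Spp1 had the highest mean of the list in both genotypes (1452 normalized counts in WT, 3586 in Nod2-/- mice). It was at 550 and 511 in WT replicates 1 and 2 and at 6425 in Nod2-/- replicate 4. The list's sum was highest in Nod2-/- replicate 4 (1292 CPM), the highest mouse for Cd9, Cd63 and Fabp5, and lowest in WT replicates 1 and 2 (58.8 and 54.8 CPM), the lowest pair for all 4 broadly expressed members. Among WT mice it was highest in replicate 3, the highest WT mouse for Cd9, Cd63 and Lgals3. Of its 15 tested genes all 15 had a log2 fold change above 0 (median 1.21), and 1 was past 5% FDR, Sox9, a transcription factor of bile duct and progenitor cells (49.7 ± 19.8 in WT, 122 ± 30.8 in Nod2-/- mice, log2 fold change 1.29, standard error 0.25, edgeR adjusted p = 0.0324). Over all genes tested, 52.3% were above 0 and 0.65% were higher and past 5% FDR. The list's range was 54.8 to 782 CPM in WT mice and 215 to 1292 CPM in Nod2-/- mice. The WT mice named here also stood at the ends of macrophage measures. The sum of the macrophage-restricted members was lowest in WT replicates 2 and 1 (7.74 and 9.95 CPM) and highest in WT replicate 3 (34.3 CPM). The pan-macrophage sum was lowest in WT replicate 1 (328 CPM) and, among WT mice, highest in replicate 3 (561 CPM). Nod2-/- replicate 4 had 14.4 and 506 CPM, the Nod2-/- medians. The part of tumor cells or of macrophages in the Cd9, Cd63, Fabp5 and Lgals3 values was not tested. For Nod2-/- replicate 7, the highest mouse for Lgals3 and for 3 macrophage-restricted members, the neutrophil sum given above and the pan-macrophage sum (898 CPM, against 376 to 590 CPM in the other Nod2-/- mice) were also the highest of all mice, and their part was not tested.

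**Figure D3:**
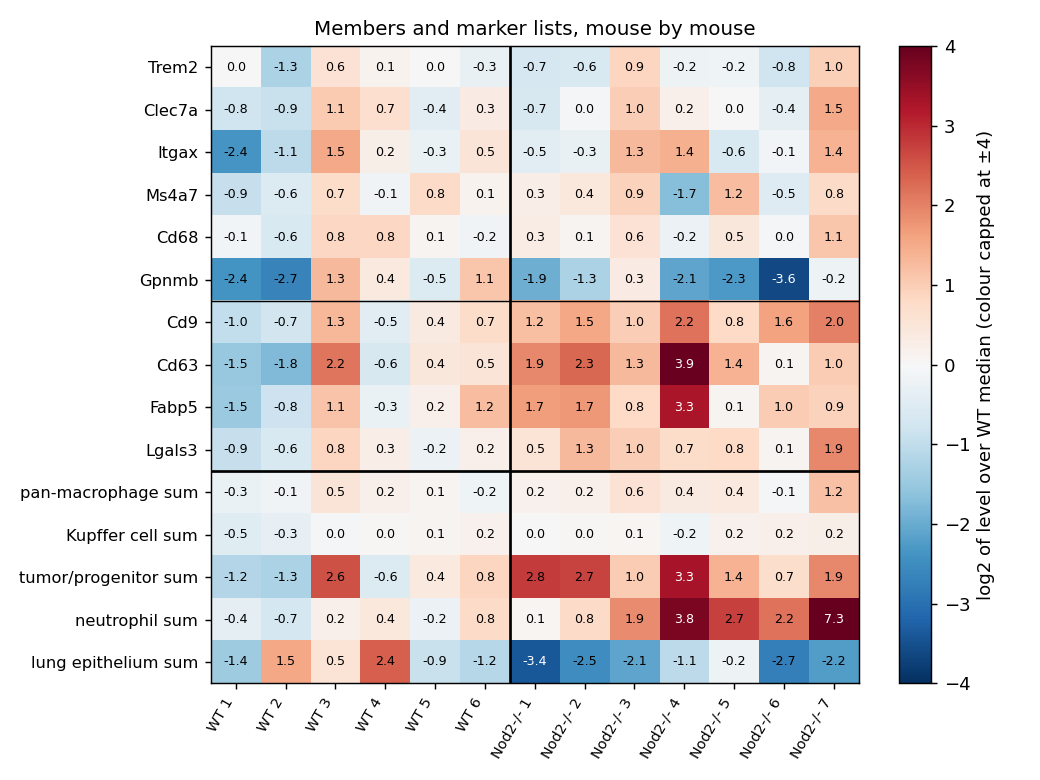
Log2 ratio of each member's normalized count, and of the summed CPM of 5 marker lists, to the WT median, with 1 column per mouse and colour capped at ±4; the lung epithelium sum leaves out Cyp2f2 and Hopx. Cd63 and Fabp5 are highest in Nod2-/- replicate 4, as is the tumor and progenitor sum, while the neutrophil and pan-macrophage sums are highest in Nod2-/- replicate 7.

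The other genes of the pathway gave few calls. Of 12 genes for the TREM2 adaptor and its signalling, 10 were tested, 9 had a log2 fold change above 0 (median 0.51) and 0 were past 5% FDR, with 4 higher at an unadjusted p under 0.05. Over all genes tested, 52.3% were above 0 and 12.9% were higher at an unadjusted p under 0.05. Tyrobp, the adaptor, had 125 ± 34.7 normalized counts in WT (SD, n = 6) and 189 ± 131 in Nod2-/- mice (SD, n = 7), with its highest value of 471 in Nod2-/- replicate 7 (log2 fold change 0.59, standard error 0.34, edgeR adjusted p = 0.303). Adam10 and Adam17, the proteases that shed Trem2 from the cell surface, had log2 fold changes of 0.16 and -0.17 (standard errors 0.10 and 0.11), and Bcl10, an adaptor downstream of Clec7a and Card9, of 0.43 (standard error 0.16, edgeR adjusted p = 0.129).

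Of 24 further genes of the lipid-associated programme all 24 were tested, and 0 were past 5% FDR. In this list 17 had a log2 fold change above 0, with a median of 0.22, against 52.3% of all genes tested. At an unadjusted p under 0.05, 8 were higher and 1 lower, against 12.9% and 10.2% of all genes tested. Its most abundant genes are also made by hepatocytes: Apoe, the lipoprotein component (log2 fold change -0.14, standard error 0.16), the lysosomal proteases Ctsb (0.09, standard error 0.11) and Ctsl (0.35, standard error 0.22), and Plin2, the coat protein of lipid droplets (-0.11, standard error 0.16). The largest differences in the list, named after their values were seen, were those of Cd52 (1.37), the secreted phosphoprotein Spp1 (1.30), lipoprotein lipase Lpl (1.14), Fabp4 (1.05) and the lysosomal protease Lgmn (1.03), with edgeR adjusted p-values of 0.0774 to 0.125. Cd52 ran from 14.4 to 35.3 in WT mice and from 16.9 to 193 in Nod2-/- mice, with its highest value in Nod2-/- replicate 7. The study's own tables hold Lpl, and Spp1 also stands in the tumor and progenitor list.

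Macrophages as a whole and resident macrophages gave the reference for these values. Over all genes tested, 52.3% had a log2 fold change above 0 and 0.65% were higher and past 5% FDR. Of 15 pan-macrophage genes 13 had a log2 fold change above 0 (median 0.52), and 1 was past 5% FDR, the scavenger receptor Msr1, at 141 ± 37.0 in WT (SD, n = 6) and 260 ± 75.5 in Nod2-/- mice (SD, n = 7; log2 fold change 0.88, standard error 0.20, edgeR adjusted p = 0.0486). Abundant genes among the others were Mpeg1 (perforin-2, log2 fold change 0.65, standard error 0.23), Lyz2 (lysozyme, 0.19, standard error 0.35) and the complement component C1qa (0.52, standard error 0.22). Of 12 Kupffer cell genes 9 had a log2 fold change above 0 (median 0.23) and 0 were past 5% FDR. Their most abundant genes included the Kupffer cell lectin Clec4f (0.35, standard error 0.18), the complement component C6 (0.15, standard error 0.25), the iron exporter Slc40a1 (0.06, standard error 0.13) and the nuclear receptor Nr1h3 (-0.04, standard error 0.10). C6, Slc40a1 and Nr1h3 are expressed by hepatocytes or other liver cells as well.

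Because pan-macrophage genes tended to be higher in Nod2-/- mice, each member was also set against them within each mouse, a scaling chosen after the values were seen. The mean log2 CPM of the 15 pan-macrophage genes was 3.79 ± 0.33 (SD, n = 6) in WT and 4.14 ± 0.47 (SD, n = 7) in Nod2-/- mice (two-sided exact permutation p = 0.147). Relative to it, Cd9 was 1.08 and Lgals3 0.61 higher on the log2 scale in Nod2-/- mice, with two-sided exact permutation p of 0.0204 and 0.00816 (0.319 for both after adjustment over all genes tested), and all 7 Nod2-/- mice were again above the WT median for both. Cd63 was 1.47 and Fabp5 0.999 higher, with exact permutation p of 0.0711 and 0.136. Gpnmb had a difference of -1.42 on that scale (from a WT mean of -2.11 ± 1.38, n = 6, to -3.53 ± 1.05, n = 7; two-sided exact permutation p = 0.0612, or 0.322 adjusted over all genes tested), and 6 of 7 Nod2-/- mice were below the WT median. Trem2 turned from slightly higher to lower, with a difference of -0.31 (two-sided exact permutation p = 0.172), and again 6 of 7 Nod2-/- mice were below the WT median. Cd68, Ms4a7 and Clec7a also turned to lower values, with differences of -0.19, -0.16 and -0.12, and Itgax was 0.17 higher, with exact permutation p-values of 0.226 to 0.717. On this scale 13.4% of all genes tested were lower in Nod2-/- mice at an exact permutation p under 0.05, and 0 of the 10 members were. Cd9 and Lgals3 were higher at that threshold, and the share of all genes higher on this scale was not counted.

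**Figure D4:**
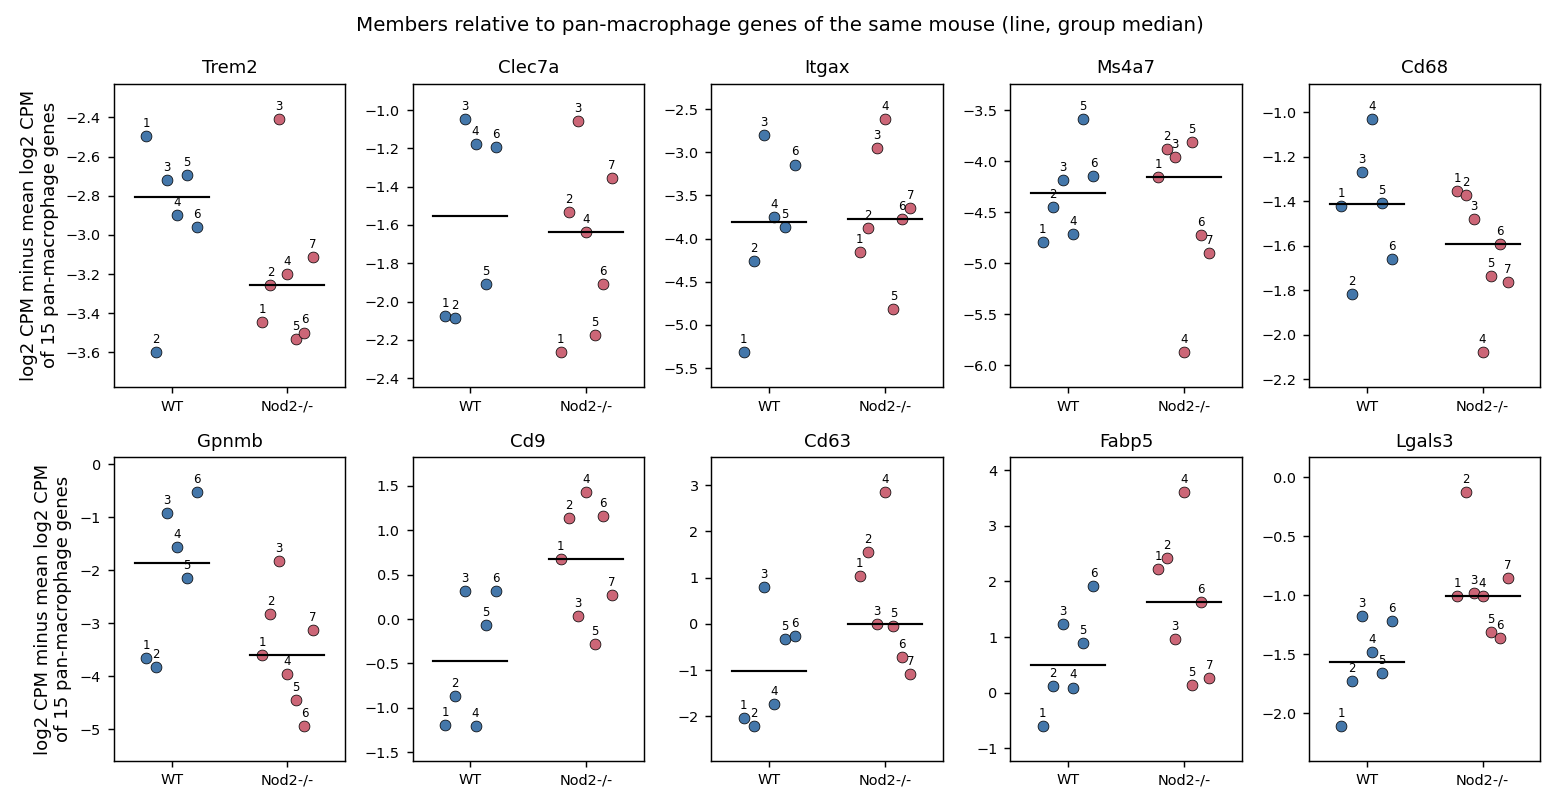
Log2 CPM of each member minus the mean log2 CPM of 15 pan-macrophage genes in the same mouse, for 6 WT and 7 Nod2-/- mice, with replicate numbers and a line at the group median. For Cd9 and Lgals3 all 7 Nod2-/- mice lie above the WT median, and for Trem2 and Gpnmb 6 of 7 lie below it.

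The genes whose pattern over the 13 mice was most like the mean of the 10 members were Csrp1, Abcc1, Dock2, Cd34, Cyb561, Csf2ra, Myo1f, Abr, Il18bp and Adam15, with Spearman's rho of 0.934 to 0.945 to the mean of the standardized log2 CPM. The points are the 13 libraries, which also share differences in depth and cell makeup, and none of the 10 genes was past 5% FDR (edgeR adjusted p of 0.106 to 0.651). Their log2 fold changes ran from 0.21 to 1.98. For Gpnmb alone, a target chosen after the values were seen, the most alike gene was Mmp12, macrophage elastase, with rho 0.907. Next came Eps8 (0.879), Helz (0.852), Cdk14 (0.846) and Col1a1 (0.835), a collagen gene of stellate cells and fibroblasts. Mmp12 had values of 16.4 to 97.6 in WT mice and of 21.6 to 90.4 in Nod2-/- mice, and a log2 fold change of -0.18 (standard error 0.45).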

How the data were processed

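Liver RNA of 6 WT and 7 Nod2-/- mice was measured, 1 library per mouse. Per the labels and the study's methods, the authors trimmed paired reads with Trimmomatic 0.33, mapped them with TopHat2 2.1.1 to GRCm38 and deposited whole-number counts per gene, without normalization; the counting program and its strand setting are not given in the sources used here. An entry without an identifier, which held no values, was left out. No 2 libraries of a genotype agreed within sampling noise (in 36 pairs, chi-square over its degrees of freedom was 10.7 to 159.8).

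The main test was the two-sided quasi-likelihood test of edgeR 4.0.16 (R 4.3.3) with TMM and without covariates, at a Benjamini-Hochberg threshold of 0.05, on 13545 genes that filterByExpr kept and that hold 99.9% of the counts. DESeq2 1.42.0, limma 3.58.1, other normalizations and filters, a replicate block and leaving out mice were alternatives, and the fits of the 3 programs were first checked on simulated counts. Symbols, positions and exon lengths come from GENCODE release 21 of build 38, with 53274 of 53465 identifiers matched, and promoters from RefSeq. Values relative to pan-macrophage genes use log2(CPM + 0.1). Single values were compared by exact permutation tests, adjusted over all genes tested rather than over the 10 members as first planned.

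All 10 members were named. Of the TREM2 signalling, wider programme, pan-macrophage and Kupffer cell lists, genes past 5% FDR and the 4 with the highest mean level were named, and of the other lists genes past 5% FDR and defining markers near 0. The result for 1 gene under this rule is not reported here. The members, the lists and the named-gene rule were chosen with earlier results of these data known. Each library is 1 mouse, so p-values measure the spread between mice.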

Additional observations from a re-analysis of the deposited data

Results flagged for a closer look

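Dixon's test at the 95% level marked 3 of 20 member and genotype groups. In each, the distance of 1 mouse from its nearest neighbour was large against the group's whole range. For values with a normal spread, chance alone marks about 1 group in 20. The test used unlogged normalized counts, whose spread was not checked, so the 3 groups cannot be set against that rate. Cd63 in WT replicate 3 had 564 normalized counts, and the next WT mouse 179. Cd63 in Nod2-/- replicate 4 had 1954, and the next Nod2-/- mouse 626. Fabp5 in Nod2-/- replicate 4 had 3297, and the next Nod2-/- mouse 1151. The same 2 mice had the highest summed level of liver tumor and progenitor genes, Spp1 among them, in their genotypes, 782 and 1292 CPM. The part of tumor cells in these values was not tested.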

How the results depend on the processing

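All alternatives are against the edgeR result on all 13 mice, with 0 members past 5% FDR in either direction and 88 higher and 69 lower genes in all. Members past 5% FDR and higher numbered 2 with DESeq2, 3 with voomWithQualityWeights, 0 to 3 when each mouse was left out in turn (3 only without WT replicate 3) and 3 without WT replicate 3 and Nod2-/- replicate 7, and 0 members were lower under any setting. Over all genes the higher and lower counts were 605 and 549 with DESeq2, 519 and 324 with voomWithQualityWeights, 408 and 159 without WT replicate 3 and Nod2-/- replicate 7, and 20 to 697 and 20 to 459 when each mouse was left out. Members with an exact permutation p under 0.05 numbered 2 on normalized counts, both higher in Nod2-/- mice, where 10.5% of all genes tested were higher at that threshold. On log2(CPM + 1) they numbered 4, and the share of all genes on that scale was not counted, so this number has no background. With the replicate number as a block, over the 12 mice whose numbers occur in both genotypes, there were 15 higher and 17 lower genes and 0 members, and Trem2 had a log2 fold change of -0.13; the same 12 mice without the block gave 28 and 26. The numbers did not pair the mice, since the deviations of same-numbered mice correlated above 0.1 in only 1 of 6 pairs. Trem2 ranged from -0.11 to 0.26, Cd68 from -0.030 to 0.28 and Clec7a from -0.066 to 0.49 when each mouse was left out, each lowest without Nod2-/- replicate 7; Trem2 was at -0.07 without Nod2-/- replicate 3 and -0.05 without WT replicate 2. Relative to pan-macrophage genes, chosen after seeing the data, Trem2, Cd68, Ms4a7 and Clec7a were at -0.31, -0.19, -0.16 and -0.12. Of the member values under settings chosen at the outset, 200 kept their direction and side of the threshold, 11 moved past it and 6 reversed. Gpnmb, Itgax and Ms4a7 gave no value with at least 10 counts required in every mouse. The groups of all 10 members overlapped under RLE and plain library size as well. With the longest transcript in place of all exons, Cd9 in Nod2-/- mice had 23.4 in place of 14.1 CPM per kilobase, and Gpnmb 0.54 in place of 0.30.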
